A study of Mus musculus with 2 samples.

Results

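The replication-linked histone genes are the clustered genes for the core histones H2A, H2B, H3 and H4 and the linker histone H1. They were taken here as every gene symbol beginning with Hist1h, Hist2h, Hist3h or Hist4 that had at least 20 unique molecular identifiers (UMIs, 1 per captured RNA molecule) over both libraries. Of 67 such symbols 62 passed, out of 31053 genes listed, 14410 of which reached the same minimum. The members comprised 5 H1, 16 H2a, 16 H2b, 12 H3 and 13 H4 genes. Hist1h1t had 9 UMIs, and Hist2h2aa2, Hist1h2aa, Hist1h2bq and Hist1h2ba had 0 UMIs, where a count of 0 allows up to 3 (a one-sided 95% limit). Every 50-base word of the Hist2h2aa2 and Hist1h2bq transcripts also occurs in another gene (0% unique). For these genes the limit does not bound expression. In build GRCm38 (mm10), 50 members lay in the large cluster at chr13:21715763-23764406, 9 at chr3:96219865-96270132, 2 on chromosome 11 and 1 on chromosome 6.

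The data were single-cell transcriptomes of mouse bone marrow progenitors, sorted as viable CD45+ cells without lineage markers and with CD127, the receptor for interleukin 7. There was 1 wild-type library (WT) and 1 library from animals with LCR1 knocked out (KO). All animals were of the C57BL/6 strain and 8 to 12 weeks old, and each library pooled several animals with males and females in equal number, so animals could not be separated. The deletion was studied for its effect on how group 2 innate lymphoid cells (ILC2) develop. No gene named LCR1 is listed in the matrices, so the knock-out label was not checked through its target. With 1 library for each genotype there was no test and no p-value, and every interval below covers counting error only.

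Replication-linked histone genes are transcribed as the genome is copied, to package the new DNA. Their mRNAs are unusual in ending in a conserved stem-loop, bound by the protein Slbp, in place of a poly(A) tail, and they are degraded when DNA synthesis stops. Some of the genes can also give longer, polyadenylated mRNAs in cells that do not divide, and replacement histones such as H3.3 are made throughout the cell cycle. The libraries were primed on poly(A), so UMIs of these genes count the molecules that oligo(dT) could prime and not all histone mRNA.

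The letters of the histone stem-loop (GGC, any base, CTTTT, any base, AG, any base, GCC, searched on the transcript strand) were found in 47 of 58797 protein-coding transcripts of the GENCODE M21 annotation (0.0799%), and 44 of these belonged to the histone symbols above. Among the members 40 had a match, and of the 22 without one 12 had gene models of 420 bases or fewer, which hold little beyond the coding sequence. The windows below show the forms of the element with its letters in capitals and 5 flanking bases, where annotated, in lower case. They belong to the most counted H2a gene, the H3 gene with the most UMIs, 1 further H2a gene, 2 H4 genes, and 2 genes with low folds between cell cycle states.
Hist1h2ap: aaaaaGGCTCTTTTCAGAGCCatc
Hist1h3c: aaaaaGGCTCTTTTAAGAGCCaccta
Hist2h2ac: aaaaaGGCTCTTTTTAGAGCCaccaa
Hist1h4d: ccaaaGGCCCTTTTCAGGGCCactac
Hist1h4i: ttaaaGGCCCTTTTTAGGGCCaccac
Hist1h1c: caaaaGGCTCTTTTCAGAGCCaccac
Hist3h2a: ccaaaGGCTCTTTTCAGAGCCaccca
The form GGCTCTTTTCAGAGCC was held by 25 members, 5 members held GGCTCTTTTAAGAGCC and Hist2h2ac alone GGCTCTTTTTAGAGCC, and the forms that begin with GGCCC occurred in H4 members only (7 and 2 for the loops of Hist1h4d and Hist1h4i). The same 16 letters stood in Hist1h2ap, Hist1h1c and Hist3h2a, while the annotated length after them differed. The model of Hist1h2ap stops 3 bases after the element and that of Hist1h3b 51 bases after it, whereas the models of Hist1h1c and Hist3h2a run on for 840 and 1643 bases and carry AATAAA, the letters of a poly(A) signal.

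RefSeq promoters (GRCm38.p6, the 250 bases before the annotated start, both strands searched) were matched for 57 members. CCAAT stood in 46 of them (80.7%) against 33.8% of all 32851 promoters, and TATAAA in 27 (47.4%) against 12.4%. By type, CCAAT stood in 5 of 5 H1, 16 of 16 H2a, 14 of 14 H2b and 8 of 10 H3 promoters. The H4 promoters differed, with CCAAT in 3 of 12 (25%), below the share of all promoters. ATTTGCAT, the octamer letters, stood in 12 promoters (21.1% against 1.60% of all), 6 of 16 H2a and 6 of 14 H2b promoters, and in 0 of the H1, H3 and H4 promoters. AAACACA stood in 4 of 5 H1 promoters. The 150 bases before the start are shown for Hist1h1b, with the highest fold of the H1 genes, Hist1h1c, with the lowest, and Hist1h2ac, which was high in the basophil or mast class, with matches to these 4 motifs in capitals.
Hist1h1b: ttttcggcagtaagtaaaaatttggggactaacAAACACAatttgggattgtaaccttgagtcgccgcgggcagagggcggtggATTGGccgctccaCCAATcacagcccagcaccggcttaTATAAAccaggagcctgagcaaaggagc
Hist1h1c: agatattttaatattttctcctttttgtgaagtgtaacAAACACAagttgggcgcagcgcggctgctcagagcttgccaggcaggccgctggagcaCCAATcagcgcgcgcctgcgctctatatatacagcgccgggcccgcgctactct
Hist1h2ac: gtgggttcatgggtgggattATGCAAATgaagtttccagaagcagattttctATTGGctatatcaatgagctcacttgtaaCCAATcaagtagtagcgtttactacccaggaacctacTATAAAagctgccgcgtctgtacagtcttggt
These lie at chr13:21780626-21780775 (minus strand), chr13:23738657-23738806 (plus strand) and chr13:23683960-23684109 (minus strand). Both H1 promoters held AAACACA, 117 and 112 bases before the start, and CCAAT at 53 and 54 bases. TATAAA was found in Hist1h1b (28 bases before the start) and in Hist1h2ac (32 bases), and these exact letters were not in the Hist1h1c window.

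Barcodes with at least 1000 genes and at most 10% mitochondrial UMIs numbered 3290 in WT (29168870 UMIs, median 5371.5) and 4343 in KO (42601457 UMIs, median 7261). Of all barcode sequences 75 were shared between the libraries, and 0 of those kept. A barcode with a UMI of Pclaf, a clamp-associated protein of replicating cells, was called Pclaf-positive, which held for 1183 WT barcodes (36.0%, exact 95% interval 34.3 to 37.6%) and 859 KO barcodes (19.8%, 18.6 to 21.0%). The Pclaf-positive KO barcodes were deeper (median 16119 UMIs against 6573 in WT), and a shallow cycling cell can miss its Pclaf UMI. Levels are UMIs of a gene per 1000000 UMIs of the group (CPM).

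Histone genes of all 5 types were higher in the Pclaf-positive state in both libraries. The 62 members together made up 5851 CPM (5812 to 5891) of Pclaf-positive and 790 CPM (776 to 804) of other WT barcodes, and 6291 CPM (6251 to 6331) against 766 CPM (755 to 776) in KO. These are folds of 7.41 (7.27 to 7.55) in WT and 8.22 (8.09 to 8.34) in KO. A member was counted as higher at 2-fold or more, with a counting interval that left out 1. By that rule 58 members in WT and 56 in KO were higher in Pclaf-positive barcodes and 0 were lower, where 5.82% of 12965 genes in WT and 5.92% of 13605 in KO were higher and 7.91% and 8.98% lower. The same 56 members were higher in both libraries, and 15 were at least 10-fold higher in both. The median fold of the members was 6.17 in WT and 5.98 in KO, beside medians over all genes of 0.976 and 0.957. Of the 100 genes with the highest folds, 23 in WT and 14 in KO were members.

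**Figure D1:**
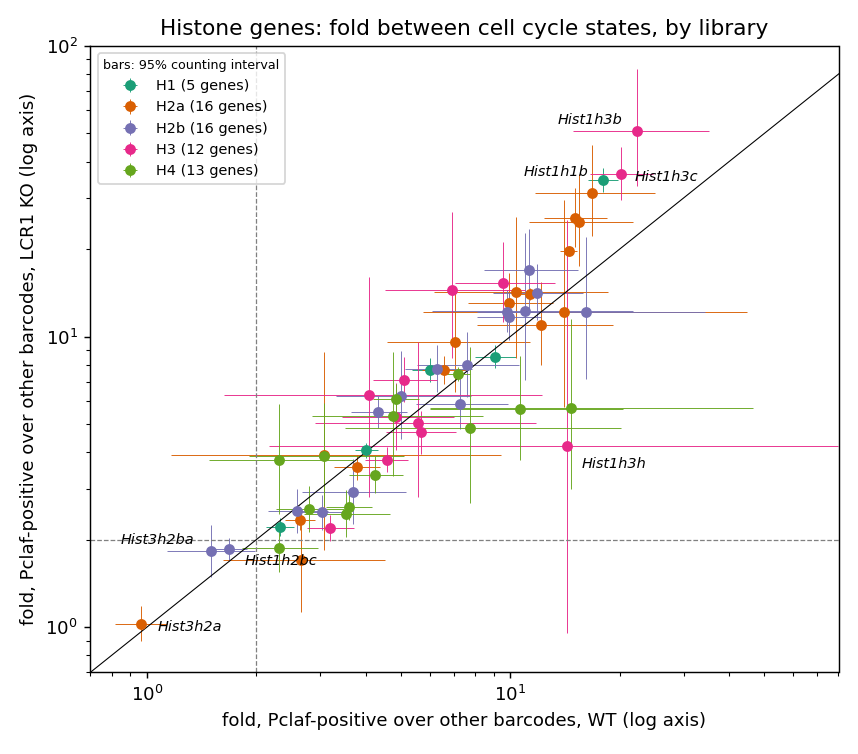
Fold of each of the 62 histone genes between Pclaf-positive and other barcodes in WT (horizontal, log axis) and KO (vertical, log axis), coloured by histone type, with 95% counting intervals as bars (drawn up to the plot edge), the 2-fold limits dashed and the line of equal folds solid. Most genes lie beyond 2-fold on both axes, with Hist1h3b, Hist1h3c and Hist1h1b at the top (20.1-fold or more, except Hist1h1b at 18.0 in WT) and Hist3h2a at 0.96 in WT and 1.03 in KO.

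The order of the folds was alike in the libraries (across the 62 genes, which are not independent replicates, Pearson's r of the log2 folds was 0.903 and Spearman's rho 0.894). When S phase was marked by at least 2 of 20 other DNA replication genes, 51 members in WT and 41 in KO were higher. This gate marked 2636 of 3290 WT and 3059 of 4343 KO barcodes, so most barcodes passed it and it is a loose mark of S phase. After removal of every barcode that showed 2 markers of each of 2 classes (which left 627 WT and 942 KO barcodes) 16 in WT and 40 in KO were higher. In that last setting folds fell in WT, as for Hist1h1b (17.98 to 6.97).

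All 5 genes of the linker histones H1, which bind DNA between nucleosomes, were higher in Pclaf-positive barcodes in both libraries. Hist1h1b reached 561 CPM in Pclaf-positive and 31.2 CPM in other WT barcodes, against 616 and 17.8 CPM in KO. Its folds were 18.0 (16.4 to 19.8) in WT and 34.5 (31.5 to 37.9) in KO, the third highest mean fold of the family. Hist1h1a gave 165 and 18.1 CPM in WT and 176 and 20.7 CPM in KO (9.09-fold and 8.53-fold). Hist1h1e gave 254 and 63.3 CPM in WT against 266 and 65.6 CPM in KO, a fold near 4 in each (4.01 and 4.06). Hist1h1d had folds of 6.03 and 7.70, and Hist1h1c the lowest of the type at 2.33 (2.12 to 2.55) and 2.22 (2.07 to 2.37). The models of Hist1h1c, Hist1h1d and Hist1h1e all run on past the stem-loop, for 840, 4884 and 1153 bases. Of the 5 H1 genes Hist1h1b thus differed most and Hist1h1c least between the states.

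The H2a genes held most of the histone UMIs, 50.4% in Pclaf-positive WT and 52.4% in Pclaf-positive KO barcodes, and less in other barcodes (37.8% and 35.3%). Hist1h2ap alone gave 25.01% and 28.20% of histone UMIs in the Pclaf-positive barcodes. It stood at 1463 CPM in Pclaf-positive and 101 CPM in other WT barcodes, and at 1774 and 90.1 CPM in KO, folds of 14.5 (13.7 to 15.3) and 19.7 (18.9 to 20.5). Only 6.93% of the 50-base words of the Hist1h2ap transcript are found in no other gene, so its level may draw on near-identical copies and is uncertain. Hist1h2ae, with 56.8% such words, behaved alike at 909 and 80.5 CPM in WT and 993 and 70.7 CPM in KO (11.3-fold and 14.1-fold). Hist1h2ac differed from both, with 108 and 40.8 CPM in WT and 89.9 and 38.4 CPM in KO, folds of 2.64 (2.40 to 2.90) and 2.34 (2.16 to 2.54).

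At the low end of the type stood Hist3h2a, a member of the small cluster on chromosome 11. It gave 19.7 CPM in Pclaf-positive and 20.4 CPM in other WT barcodes, and 21.0 and 20.4 CPM in KO. Its folds of 0.96 (0.82 to 1.14) and 1.03 (0.90 to 1.18) left no room for a 2-fold difference in either library. Hist2h2ab was above 2-fold in WT (2.66, 1.62 to 4.52) and at 1.70 (1.13 to 2.55) in KO.

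Among the H2b genes Hist1h2bb and Hist1h2bj followed the family. Hist1h2bb gave 76.5 CPM in Pclaf-positive and 7.80 CPM in other WT barcodes and 73.1 and 5.99 CPM in KO (9.81-fold and 12.2-fold), and Hist1h2bj 73.2 and 7.40 CPM in WT and 57.1 and 4.89 CPM in KO (9.91-fold and 11.7-fold). Hist1h2bc, the H2b gene with the most UMIs, did not: it gave 57.6 and 34.3 CPM in WT and 72.3 and 38.9 CPM in KO, folds of 1.68 (1.503 to 1.881) and 1.86 (1.71 to 2.03). Hist3h2ba, the neighbour of Hist3h2a, also fell short of 2-fold, at 9.15 and 6.11 CPM in WT and 12.4 and 6.79 CPM in KO (1.498-fold and 1.828-fold). These calls depend on the setting: with S phase marked by replication genes Hist1h2bc was at 2.63-fold in WT and 3.06-fold in KO, and after thinning to 3000 UMIs Hist1h2bc (2.33) and Hist3h2ba (2.40) passed 2-fold in KO. Of 5 members listed as known for polyadenylated mRNA outside S phase (Hist1h1c, Hist1h2bc, Hist2h2be, Hist3h2a and Hist3h2ba), 2 passed 2-fold in each library, with a median fold of 1.68 in WT and 1.86 in KO.

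Of the H3 genes 11 of 12 were higher in Pclaf-positive barcodes in each library. Hist1h3b stood at 36.4 CPM in Pclaf-positive and 1.63 CPM in other WT barcodes, and at 39.2 and 0.767 CPM in KO, with folds of 22.3 (14.9 to 35.2) and 51.1 (33.1 to 83.1). Hist1h3c gave 143 and 7.12 CPM in WT and 131 and 3.62 CPM in KO (20.1-fold and 36.2-fold). Both had the highest mean folds of all members, an order that depends on the setting, and their models stop 51 and 74 bases after the stem-loop. After thinning to 3000 UMIs Hist1h3b was at 11.7-fold in WT and 22.4-fold in KO and Hist1h3c at 10.3-fold and 22.6-fold, below Hist1h1b in WT (12.5-fold). With S phase marked by replication genes Hist1h3b was at 9.25-fold and 20.8-fold, and with a limit of 500 genes at 8.52-fold in WT. Without possible doublets Hist1h3c was at 2.36-fold in WT, and Hist1h2an (46.1-fold) led Hist1h3c (35.7-fold) in KO. Hist1h3e was lower in fold, at 82.7 and 18.1 CPM in WT and 78.1 and 20.7 CPM in KO (4.57-fold and 3.77-fold), and Hist1h3a lower again at 52.2 and 16.4 CPM in WT and 57.4 and 26.1 CPM in KO (3.19-fold and 2.20-fold). Hist1h3h had 25 UMIs in all and was not called in either library.

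The H4 genes had the lowest median fold of the types, 4.26 in WT and 3.89 in KO, beside 10.1 and 11.6 for H2a. Hist1h4d led them, with 397 CPM in Pclaf-positive and 55.1 CPM in other WT barcodes and 453 and 60.99 CPM in KO (7.20-fold and 7.43-fold). Hist1h4i gave 74.2 and 15.3 CPM in WT and 77.1 and 12.7 CPM in KO (4.84-fold and 6.09-fold), and Hist1h4h 58.1 and 16.1 CPM in WT and 56.9 and 22.0 CPM in KO (3.60-fold and 2.59-fold). Hist4h4, the only member on chromosome 6, was called in WT (2.32) and not in KO (1.88). Per type, the summed level rose 9.89-fold and 12.2-fold for H2a, 6.74-fold and 7.47-fold for H1, 6.82-fold and 6.19-fold for H3, 5.36-fold and 5.21-fold for H4, and 4.67-fold and 4.70-fold for H2b, in WT and KO.

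**Figure D2:**
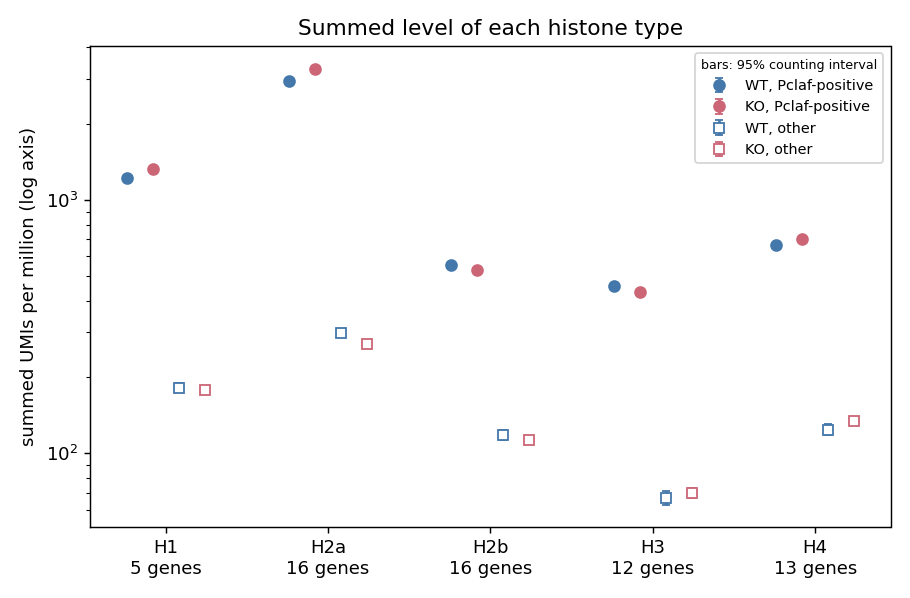
Summed level of each histone type in CPM (log axis), in Pclaf-positive (filled circles) and other barcodes (open squares) of WT (blue) and KO (red), with 95% counting intervals. H2a is the most counted type in each of the 4 groups, from 2950 and 3295 CPM in Pclaf-positive barcodes to 298 and 270.0 CPM in other barcodes.

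Among members with a stem-loop match the annotated 3′ end went with the fold, as a description of groups drawn after the folds were known. The 20 members with a stem-loop within 100 bases of the end of their model had a median fold of 7.32 in WT and 8.78 in KO, and 7 in WT and 9 in KO were at least 10-fold higher. The 20 members whose models run on further had medians of 4.17 and 3.91, and 1 of them, Hist1h2ae, was at least 10-fold higher in each library. The groups overlapped, since Hist1h4n (2.32 in WT) and Hist1h3a (2.20 in KO) end soon after the loop. They also differed in histone type, whose part was not tested, and all H1 genes with a match run on. Within H4 the order did not hold. Hist1h4f, Hist1h4h, Hist1h4m and Hist1h4n, which end near the loop, had folds of 2.32 to 4.77 in WT and 2.59 to 5.32 in KO. Hist1h4c, Hist1h4d, Hist1h4i, Hist2h4 and Hist4h4, which run on, had 2.32 to 7.20 and 1.88 to 7.43. The 12 short models without a match had medians of 11.7 and 12.2. The 10 longer models without a match had medians of 4.59 and 5.39. Their folds ran from 1.68 to 18.0 in WT and from 1.70 to 34.5 in KO, with Hist1h2bc and Hist1h1b among them.

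**Figure D3:**
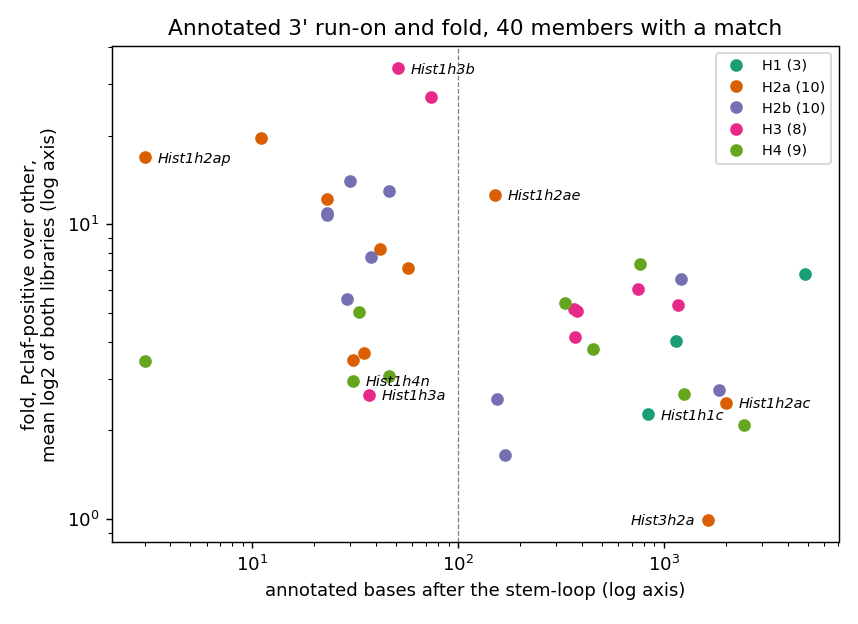
Bases annotated after the stem-loop (horizontal, log axis) and fold between Pclaf-positive and other barcodes (vertical, log axis, from the mean log2 fold of both libraries) for the 40 members with a stem-loop match, coloured by histone type, with a dashed line at 100 bases. Folds above 10 lie left of the line except Hist1h2ae, and Hist3h2a, with 1643 bases after the loop, is lowest.

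Other histone-related genes had lower median folds, 2.13 in WT and 2.37 in KO for replacement histones and 1.36 and 1.41 for histone transcription and mRNA processing. Of 11 replacement histone genes 6 were higher in Pclaf-positive barcodes in both libraries, among them H2afx, the damage-responsive H2A (5.23-fold in WT and 6.56-fold in KO), H2afz (2.97 and 3.16) and Cenpa, the centromeric H3 (3.71 and 4.14). H3f3b, which encodes H3.3, stood at 1715 CPM in Pclaf-positive and 1526 CPM in other WT barcodes (1.12-fold), and at 1946 and 1792 CPM in KO (1.09-fold). Of 14 measured genes of histone transcription and mRNA processing 2 were higher in both, Slbp (2.02 and 2.05) and Zfp473 (3.71 and 2.23). Npat, the coactivator of histone transcription, gave 28.4 and 20.2 CPM in WT (1.41-fold) and 1.48-fold in KO. Of 15 histone chaperone genes 6 were higher in both, with Asf1b (9.21 and 11.1), which hands H3 and H4 to the assembly factor CAF-1, above its paralog Asf1a (1.31 and 1.26), and Chaf1a (3.75 and 3.70), the large subunit of CAF-1. For comparison, 18 and 20 of 20 DNA replication genes and 14 of 14 G2/M genes were higher in WT and KO.

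Histone UMIs were spread unevenly among Pclaf-positive barcodes. Each barcode was thinned to 3000 UMIs, which left out 937 WT and 228 KO barcodes that had fewer. The 565 Pclaf-positive WT barcodes then had a median of 8 histone UMIs, with quartiles at 2 and 32 and a highest value of 118, and the 553 in KO a median of 11, with quartiles at 2 and 38 and a highest value of 120. At least 20 histone UMIs were seen in 38.6% (34.6 to 42.7%) of them in WT and 45.6% (41.4 to 49.8%) in KO. In other barcodes the shares were 2.40% (1.75 to 3.23%) and 1.80% (1.39 to 2.29%). Without thinning the shares were 33.4% and 53.4% in Pclaf-positive and 3.37% and 4.68% in other barcodes.

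The level followed the number of G2/M genes detected out of 14, a list that holds Ccnb1 and Cenpf and also Top2a and Mki67. Top2a and Mki67 gave 952 and 798 of the list's 3228 CPM in Pclaf-positive WT barcodes, and 865 and 651 of 3140 CPM in KO. Whether this number of genes separates G2/M from S phase was not tested. Thinned Pclaf-positive barcodes with 0 G2/M genes had a median of 1 histone UMI in WT and 2 in KO, and those with 1 to 2 such genes a median of 2 in each. With 3 to 5 G2/M genes the median was 15 in WT and 25.5 in KO, and with 6 or more it was 33 and 37.5. Pclaf-positive barcodes rich in replication transcripts (6 or more of 20 genes) were split in the same way: 111 WT and 134 KO barcodes with 0 to 2 G2/M genes had a median of 2 in each library, and 257 and 240 barcodes with 3 or more had medians of 25 and 33. Barcodes with many replication genes and few G2/M genes thus had few histone UMIs. The same order held among barcodes without Pclaf, where 88 WT and 111 KO barcodes had 6 or more G2/M genes and medians of 13 and 9.

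**Figure D4:**
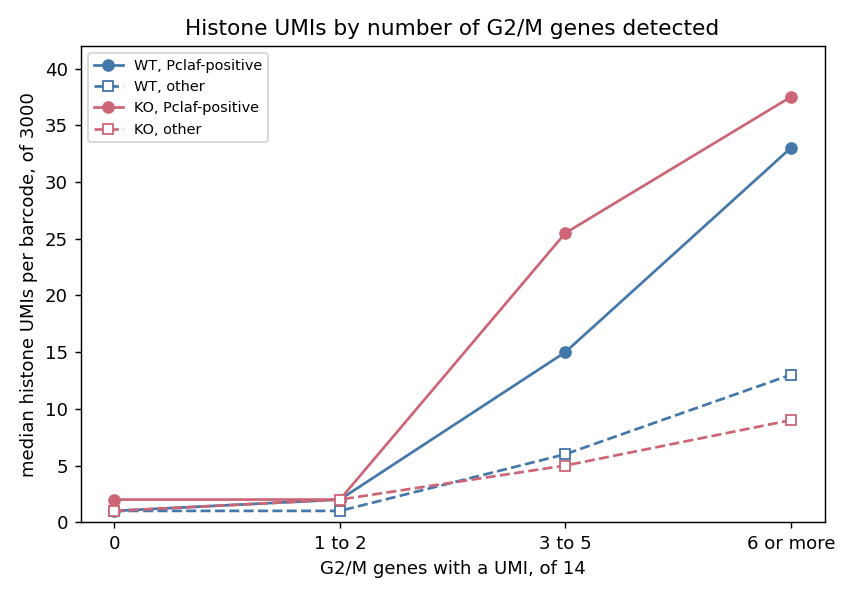
Median histone UMIs per barcode thinned to 3000 UMIs (vertical), by the number of 14 G2/M genes with a UMI (horizontal), for Pclaf-positive (filled circles, solid lines) and other barcodes (open squares, dashed lines) of WT (blue) and KO (red). Medians stay at 1 or 2 up to 2 G2/M genes and reach 33 in WT and 37.5 in KO at 6 or more in Pclaf-positive barcodes.

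A low level remained in barcodes without a UMI of the cell cycle genes. The 120 WT and 334 KO barcodes with no UMI of Pclaf, of the replication list or of the G2/M list held 564 CPM (502 to 630) and 627 CPM (587 to 669) of histone UMIs. Hist1h1e (62.2 and 89.5 CPM) and Hist1h1c (75.03 and 68.02 CPM) were above Hist1h2ap (36.6 and 37.5 CPM) there, while Hist1h3b had 1 UMI in each library. Barcodes under 500 genes, which may hold free RNA or broken cells, carried 2753 CPM in WT (5838 barcodes) and 2347 CPM in KO (66 barcodes), above the other barcodes, and the part of free RNA in the low levels was not tested.

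Classes were gated by 6 markers each, a barcode joining the class with most detected markers if that number was at least 2 and no other class equalled it. The gates left 612 WT (18.6%) and 707 KO (16.3%) barcodes unassigned, and in each gate its own list had the highest sum (4188 and 4189 CPM for ILC2 markers in the ILC2 gate of WT and KO, 2955 and 3029 CPM for the lymphoid progenitor list in its gate). The gate used these same markers, so the sums are no independent check of the classes. Lymphoid progenitors also held plasmacytoid dendritic markers (1237 and 985 CPM). The T gate, called T cells below, also held the NK or ILC1 markers (1115 CPM in WT and 1438 CPM in KO), beside 2551 and 2442 CPM of its own list. The share of Pclaf-positive barcodes in WT and KO was 49.9% and 34.4% in lymphoid progenitors, 56.0% and 36.3% in plasmacytoid dendritic cells (pDC), 47.4% and 30.8% in the basophil or mast class, 25.5% and 13.9% in ILC precursors, and 13.4% and 4.53% in ILC2. These shares depend on depth, which differed between the libraries, and on the CD127 sort.

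All 5 classes with at least 30 barcodes in each state and library had at least 4-fold more histone UMIs in the Pclaf-positive state. The fold of the summed level was 7.54 in WT and 6.93 in KO in lymphoid progenitors, 8.64 and 13.997 in pDC, 7.68 and 10.96 in ILC precursors, 9.47 and 5.06 in ILC2, and 4.06 and 4.45 in the basophil or mast class. Among single members 53 of 58 in WT and 52 of 60 in KO were higher in Pclaf-positive lymphoid progenitors (4.21% and 4.14% of genes), 37 of 41 and 34 of 36 in pDC (6.00% and 7.36%), and 28 of 31 and 40 of 45 in ILC precursors (4.84% and 5.98%). The counts were 37 of 42 and 12 of 26 in ILC2 (9.91% and 7.43%) and 48 of 56 and 46 of 50 in the basophil or mast class (5.70% and 7.88%). All 5 classes thus shared the direction. In other barcodes T cells gave 357 CPM in WT and 412 CPM in KO, ILC2 435 and 514 CPM, ILC precursors 596 and 665 CPM, pDC 772 and 712 CPM and lymphoid progenitors 808 and 848 CPM.

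**Figure D5:**
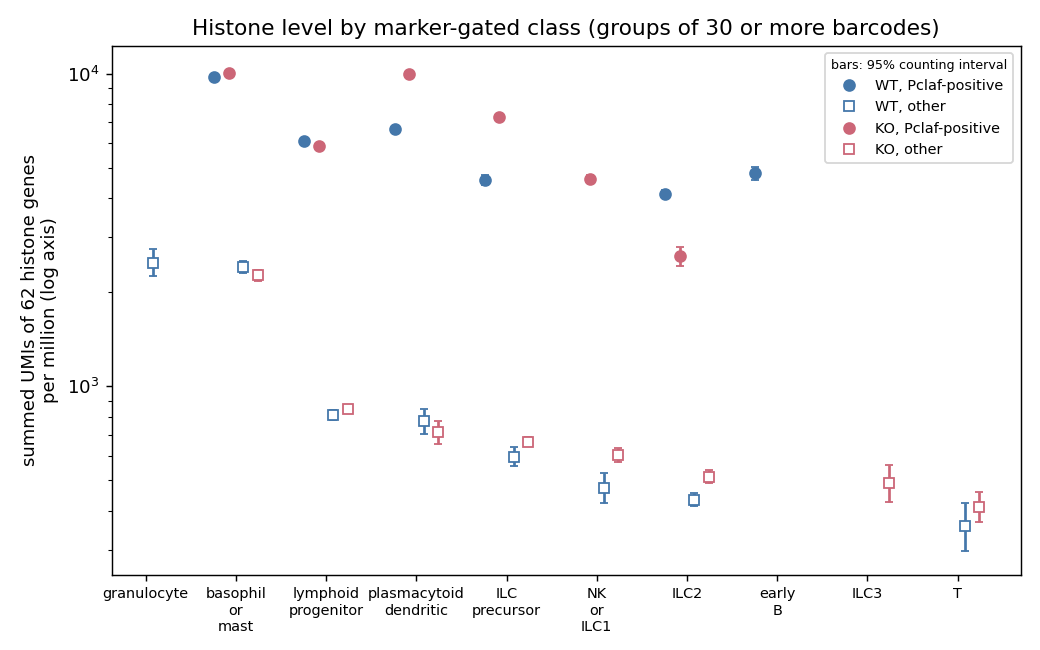
Summed level of the 62 histone genes by marker-gated class in CPM (log axis), in Pclaf-positive (filled circles) and other barcodes (open squares) of WT (blue) and KO (red), with 95% counting intervals and groups under 30 barcodes left out. The basophil or mast class reaches 9769 and 10066 CPM in Pclaf-positive barcodes and 2409 and 2263 CPM in other barcodes, and ILC2, at 435 and 514 CPM, and T cells lie at the low end in other barcodes. The granulocyte gate is at 2484 CPM in other WT barcodes.

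The basophil or mast class, marked by Mcpt8, Prss34, Cpa3, Gata2, Ms4a2 and Fcer1a, had the highest histone level of the 5 classes in both states, in Pclaf-positive KO barcodes with an interval that overlapped that of pDC (9967 CPM, 9729 to 10210). Outside these 5, granulocyte barcodes without Pclaf gave 2484 CPM (2246 to 2742) in WT (36 barcodes) and 1143 CPM in KO (3 barcodes). Early B barcodes without Pclaf gave 1798 CPM in WT (23 barcodes) and 2310 CPM in KO (21 barcodes). The basophil or mast markers, which set the gate, summed to 45230 CPM in WT and 51385 CPM in KO. In this class the granulocyte list was also present (3463 and 3324 CPM). In its Pclaf-positive barcodes (162 in WT and 61 in KO) histones made up 9769 CPM (9614 to 9925) and 10066 CPM (9862 to 10274), and in its other barcodes (180 and 137) 2409 CPM (2311 to 2509) and 2263 CPM (2168 to 2361). Against all other barcodes of the same state, 45 of 60 members in WT and 33 of 61 in KO were higher in its Pclaf-positive barcodes, where 6.92% and 8.08% of genes were. In its barcodes without Pclaf 35 of 50 members in WT and 36 of 51 in KO were higher and 1 was lower in each, where 8.58% and 8.65% of genes were higher and 9.44% and 12.6% lower. Of these calls 32 in the Pclaf-positive state and 31 in the other state were made in both libraries.

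In the barcodes of this class without Pclaf, Hist1h2ac reached 234 CPM in the WT and 183 CPM in the KO library, 8.49 and 5.50 times the level in all other barcodes of that state. Its level kept above 5-fold in the Pclaf-positive state as well (383 and 401 CPM, 5.15-fold and 5.73-fold). Hist1h1c reached 208 and 260 CPM (5.92-fold and 5.55-fold) and Hist1h1d 113 and 102 CPM (6.70-fold and 6.15-fold). Hist1h3d, an H3 gene, had the largest excess of the 4, at 60.1 and 40.1 CPM (13.2-fold and 8.69-fold). The members did not move as a block: Hist1h1a stayed at 19.0 CPM in both libraries (1.05-fold and 0.92-fold), Hist3h2a at 18.97 and 14.78 CPM (0.92-fold and 0.72-fold), and Hist3h2ba had 1 UMI in each library (0.16-fold, 0.0041 to 0.93, and 0.15-fold, 0.0038 to 0.85). G2/M genes were also high in these barcodes, with 1457 CPM (WT) and 1015 CPM (KO) against 407 and 230 CPM in all barcodes without Pclaf, and their part in the histone level was not tested as a cause. In the few barcodes of the class with no replication or G2/M UMI at all (12 in WT and 13 in KO), histones still gave 1841 CPM (1438 to 2322) and 1517 CPM (1180 to 1920).

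ILC2, innate lymphoid cells known for type 2 cytokines, had the lowest level of the 5 compared classes in barcodes without Pclaf, and T cells were lower still (357 and 412 CPM). In ILC2 without Pclaf 28 of 50 members in WT and 11 of 51 in KO were lower than in all other barcodes and 0 were higher, where 18.1% and 17.4% of genes were lower and 5.05% and 4.40% higher. The KO count is thus near the share of all genes. The 11 members lower in both libraries included Hist1h2ae (0.24-fold in WT and 0.25-fold in KO), Hist1h2ap (0.32 and 0.38), Hist1h1a (0.28 and 0.44) and Hist1h3d (0.17 in WT, and 0.13, 0.027 to 0.39, on 3 UMIs in KO). G2/M genes were at 116 and 73.5 CPM in these barcodes. In lymphoid progenitors without Pclaf, Hist1h1a (31.9 and 32.2 CPM, 2.36-fold and 2.16-fold) and Hist1h2bg (23.0 and 14.8 CPM, 3.52-fold and 3.00-fold) were higher and Hist2h4 lower (3.78 and 3.60 CPM, 0.40-fold and 0.37-fold) in both libraries. Of the members 3 of 50 in WT and 5 of 51 in KO were higher there and 2 and 1 were lower, where 7.57% and 7.59% of genes were higher and 10.9% and 12.6% lower. The member counts are thus near or below the shares of all genes.

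Between genotypes the Pclaf-positive barcodes differed little when pooled over classes, which were present in different numbers in the 2 libraries. Within single classes the summed level differed in both directions, as given below. Of 62 members 0 were 2-fold higher and 0 were 2-fold lower in KO than in WT, where 1.31% of 12806 genes were higher and 1.26% lower. The summed level was 1.08 times that of WT (1.07 to 1.09), with H2a at 1.12, H1 at 1.08, H4 at 1.05, H2b at 0.96 and H3 at 0.95. The members nearest to a call were Hist1h3h (0.47, on 25 UMIs in all), Hist1h4b (0.54) and Hist1h2bk (0.65). Marking S phase by replication genes gave 2 members lower, thinning gave 1 higher, and the removal of possible doublets gave 21 higher, the last with 165 WT and 74 KO Pclaf-positive barcodes left.

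In barcodes without Pclaf 5 members were 2-fold lower in KO and 0 were higher, where 1.86% of 13628 genes were lower and 2.29% higher. Hist1h3g had 1.70 CPM in WT and 0.548 CPM after the deletion (0.32-fold, 0.16 to 0.64), and Hist1h2ab had 7.19 and 2.92 CPM (0.41-fold, 0.30 to 0.55). Hist1h2an (2.78 and 1.24 CPM, 0.45-fold), Hist1h3b (1.63 and 0.767 CPM, 0.47-fold) and Hist1h2bn (3.46 and 1.68 CPM, 0.49-fold) were the others, Hist1h3c (0.51-fold) lay just outside, and Hist1h1b was at 0.57-fold. Hist3h2a, with the lowest fold between states, was at 1.00-fold (0.87 to 1.15), and Hist1h3a at 16.4 and 26.1 CPM (1.60-fold, 1.38 to 1.86). The summed level was 0.97 times that of WT (0.95 to 0.99), over classes present in different numbers in the 2 libraries. Within classes it was 1.18 (1.11 to 1.26) in ILC2, 1.12 (1.03 to 1.21) in ILC precursors and 1.05 (1.01 to 1.10) in lymphoid progenitors. It was 1.27 (1.13 to 1.44) in the NK or ILC1 gate and 1.15 (0.94 to 1.43) in T cells. In pDC it was 0.92 (0.81 to 1.05) and in the basophil or mast class 0.94 (0.89 to 0.997). In all barcodes without Pclaf 4 of 14 G2/M genes were 2-fold lower in KO (median fold 0.54), and their part in the difference was not tested as a cause. The 5 calls depend on the setting. With S phase marked by replication genes, and among barcodes with no replication or G2/M UMI, 0 of the 5 remained, with 0 members lower and 2 and 3 higher. Of the 5, 1 remained after thinning, 1 without possible doublets, 1 with a minimum of 100 UMIs, 2 with at most 5% mitochondrial UMIs, 2 without the basophil or mast class and 3 with at least 2 Pclaf UMIs.

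Within classes the 2 libraries differed in both directions among Pclaf-positive barcodes. In ILC2 the summed level was 4114 CPM in WT (119 barcodes) and 2604 CPM in KO (34 barcodes), 0.63-fold (0.59 to 0.68), and 10 of 36 members were 2-fold lower and 0 higher, where 3.66% of 7645 genes were lower and 1.58% higher. Hist1h2ab (0.16-fold, 0.04 to 0.43), Hist1h4i (0.40-fold, 0.17 to 0.84) and Hist1h1a (0.47-fold, 0.26 to 0.80) were among them. In ILC precursors it was 4576 CPM in WT (40 barcodes) and 7289 CPM in KO (97 barcodes), 1.59-fold (1.53 to 1.66), and 4 of 45 members, among them Hist1h2ae (2.04-fold, 1.83 to 2.28), were higher and 0 lower, where 2.31% of genes were higher and 2.52% lower. In pDC it was 6667 and 9967 CPM, 1.495-fold, with 2 of 46 members higher and 1 lower beside 1.08% and 2.08% of genes. In lymphoid progenitors, with 374 WT and 384 KO barcodes the largest of these groups, it was 6085 and 5876 CPM, 0.97-fold, with 1 of 60 members lower (Hist1h4b, 0.48) beside 0.929% of genes, and 0 higher beside 0.877%. In the basophil or mast class it was 1.03-fold, with 1 of 57 members lower (Hist1h2ag, 0.41) beside 2.64% of genes, and 0 higher beside 1.03%. The DNA replication list moved in the direction of the histone level in ILC2 (2450 CPM in WT and 1776 CPM in KO), ILC precursors (2439 and 3195 CPM) and pDC (4079 and 4427 CPM). The G2/M list was lower in KO in ILC2 (1964 and 1320 CPM), near equal in ILC precursors (2939 and 3070 CPM) and lower in pDC (4187 and 3882 CPM). The part of either list in the histone level was not tested.

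Reads from near-identical histone genes limit single members. Of the 62 members 7 had under 10% of their 50-base words to themselves, among them Hist1h2ap, Hist1h2br (0.166%) and Hist2h3c1 (0%), and 30 had under 50%. Models of 22 members overlapped another annotated gene on either strand, and those of Hist1h1e and Hist1h2be overlapped each other.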

How the data were processed

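The authors deposited 1 matrix of unnormalized counts for each library, in which a value is the number of UMIs of a gene in a barcode. The file headers give software version 3.1.0, taken here to be that of Cell Ranger, and the submitters' processing notes name build mm10. The notes also name Seurat, without its role, and the annotation release behind the counts is unknown here. The authors' counts were used as deposited, from 10x Genomics 3' v3.1 libraries planned for 10000 cells and 20000 read pairs per cell.

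Barcodes with at least 1000 genes and at most 10% mitochondrial UMIs were kept. UMIs were summed over barcodes of a class, state and library and scaled to CPM. No test was run, since each genotype had 1 library. Levels carry exact Poisson intervals, shares exact Clopper-Pearson intervals and folds exact binomial intervals, at 95%. A gene was called at 2-fold with an interval that left out 1 and at least 20 UMIs over both sums. Genes were named by a rule: the 3 members of each type with the most UMIs, the 3 with the highest and the 3 with the lowest fold between states, and up to 6 past 2-fold between genotypes. Further members were named after their values were seen. The members, gene lists and markers were chosen with earlier results of these data known. No doublet caller was run, and barcodes with 2 markers of each of 2 classes were left out as an alternative. Other alternatives changed the gene, mitochondrial and UMI limits, the S phase gate, the scaling (edgeR 4.0.16 TMM, median of ratios), the class gate and the depth (thinned to 3000 UMIs). The calling step was tested on simulated data. Transcripts and positions came from GENCODE M21 and promoters from RefSeq. Analyses used Python 3.11.15, numpy 2.4.6, scipy 1.17.1, pandas 2.3.3 and R 4.3.3.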

Additional observations from a re-analysis of the deposited data

Results flagged for a closer look

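In Pclaf-positive barcodes 3 members were past 2-fold between genotypes in opposite directions in 2 classes. Each class had 1 library per genotype, so the difference between classes was not tested. Hist1h2br was 2.46 times its WT level in KO ILC precursors and 0.312 times in KO ILC2. Hist1h3d was 2.82 times its WT level in KO ILC precursors and 0.244 times in KO ILC2. Hist1h3b was 2.04 times its WT level in KO plasmacytoid dendritic cells and 0.172 times in KO ILC2. The KO values in ILC2 rest on 34 barcodes, with 3 UMIs of Hist1h2br and 2 each of Hist1h3d and Hist1h3b, with counting intervals of 0.061 to 0.992 for Hist1h2br, 0.028 to 0.964 for Hist1h3d and 0.020 to 0.664 for Hist1h3b.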

How the results depend on the processing

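No paired analysis was possible because each genotype had 1 library. The number of members higher in Pclaf-positive barcodes stayed within 1.5 times its value under all alternatives run in KO (40 to 59) and all but 1 in WT (45 to 59), and was 16 in WT without possible doublets, where 627 barcodes were left. For genotype differences in barcodes without Pclaf (5 members), the count was 19 with a limit of 500 genes, which admits 10519 WT barcodes, and 3 with thinning to 3000 UMIs. The direction turned with the replication gene gate (2 members, both higher) and with other barcodes without replication or G2/M UMIs (3 members, all higher), neither of which kept any of the 5. The replication gene gate marked most barcodes and left 654 WT and 1284 KO barcodes as other. The count was 1 with a minimum of 100 UMIs and 2 without the basophil or mast class. In Pclaf-positive barcodes (0 members), it was 2 with the replication gene gate (both lower), 1 with thinning (higher) and 21 without possible doublets (all higher). Under both scalings it was unchanged at 5 and 0, with shifts of at most 0.04 on the log2 scale. Of the 5 comparable classes, all with at least 2-fold higher sums, 2 were left by the stricter class gate and 3 by thinning, and each of these was again at least 2-fold higher. For the 612 values of named members under alternatives, 579 kept their call or lack of a call, 22 fell short of the limit and 11 newly passed it. Among members called in the main setting 0 reversed, and a change of direction was not tracked for uncalled members. A further 25 had too few UMIs for a value. The alternatives without the deepest 5% of barcodes, without replication or G2/M UMIs and without the basophil or mast class were chosen after seeing the data. The cause of these shifts was not tested.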

Other observations

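Some gated groups were under 30 barcodes in a state and took no part in the comparisons. The granulocyte class, marked by Mpo, Elane, Prtn3, Ctsg, Ms4a3 and S100a8, had 26 Pclaf-positive and 36 other barcodes in WT, and histones gave 972 CPM (848 to 1108) in the first and 2484 CPM (2246 to 2742) in the second, the reverse of the order in the 5 compared classes. Its G2/M genes gave 3176 and 1211 CPM. Early B cells gave 4794 CPM in 35 Pclaf-positive and 1798 CPM in 23 other WT barcodes, and 9152 and 2310 CPM in 21 barcodes each in KO. Among 73 ILC3 barcodes in KO 0 had a Pclaf UMI (upper limit 4.93%, exact 95% interval), and their histones gave 491 CPM (428 to 561). T cells with Pclaf, 6 barcodes in each library, gave 350.3 and 422 CPM, beside 357 and 412 CPM in T cells without it.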
